A study of Homo sapiens with 4 samples.

Results

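Cells at the edge of a tumour move through a matrix that they bind, coat and remodel with proteoglycans and hyaluronan. Here 10 genes of that surface coat were compared between the core and the invasion zone of melanoma spheroids: the syndecans SDC1, SDC2, SDC3 and SDC4, the glypican GPC1, the melanoma proteoglycan CSPG4, the matrix proteoglycan versican (VCAN), the hyaluronan receptor CD44, and the hyaluronan synthases HAS2 and HAS3. They were taken from the count table by their symbols, 10 of its 56303 gene rows, and 10 of 10 were among the 15529 genes with enough counts to be tested. The bulk RNAseq libraries came from MV3, an established line of highly metastatic human melanoma that carries the nuclear reporter H2B-GFP in both zones, and the labels name no treatment. Spheroids of 50000 cells invaded a collagen I gel until day 2, when the core was cut out with a punch of 1 mm and the zone around it with a punch of 3 mm, which gave 2 core and 2 invasion zone libraries. The vertical cut may leave invading cells above and below the core in the core sample. The labels do not say whether the libraries of a zone came from separate cultures, so the p-values measure only the spread between these libraries.

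Proteoglycans are proteins that carry long sulphated sugar chains. Syndecans span the membrane and glypicans sit on it by a lipid anchor, and the heparan sulphate chains of both bind growth factors and matrix proteins. CSPG4, also known as NG2 or the melanoma-associated chondroitin sulphate proteoglycan, is a surface protein long used to mark melanoma cells, and versican is secreted into the matrix, where it binds hyaluronan. Hyaluronan is a sugar chain without a protein core, spun out through the plasma membrane by the synthases and bound at the surface by CD44.

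The sequence around the start of each gene was looked at as a description only. The 10 genes shared no direction between zones: 6 had positive and 4 negative log2 differences with the zone alone. RefSeq windows on GRCh38.p14, from 250 bases before to 50 bases after an annotated start, were matched by symbol for 8 of the 10 genes. All 8 held the GC box GGGCGG on at least 1 strand, a motif found in 45% of 35116 such windows, and their GC content ran from 60.3% (VCAN) to 84% (SDC3) against a median of 58.7% over all windows. The AP-1 motif TGANTCA (in 7.71% of all windows), the TEAD motif GGAATG (14%) and the TATA box TATAAA (11.5%) were in 0 of the 8, while the hypoxia response cores ACGTG (21.4%) and GCGTG (36.5%) were in 2 and 3 of them. Both strands were searched, matches of different motifs may overlap, and a match describes letters only. The windows shown belong to the 3 of these genes whose zone difference passed the adjusted p with the replicate block, read 5′ to 3′ on the strand of the gene, and the capitals mark the GC box on either strand. SDC1 (chr2:20225426-20225725, minus strand, GC content 67.7%) and HAS3 (chr16:69107290-69107589, plus strand, 67%) each held 1 match, and SDC3 (chr1:30908709-30909008, minus strand) held 6. Another SDC1 window, not shown (chr2:20225081-20225380, GC content 70.7%), also held 1 match. A gene was counted where any of its windows matched, whereas the shares over all windows are per window. No window of HAS2 or SDC2 was searched, so the motif counts leave out HAS2, the gene called higher with the replicate block. Their absence does not mean that their starts are not annotated or lack these motifs.
SDC1: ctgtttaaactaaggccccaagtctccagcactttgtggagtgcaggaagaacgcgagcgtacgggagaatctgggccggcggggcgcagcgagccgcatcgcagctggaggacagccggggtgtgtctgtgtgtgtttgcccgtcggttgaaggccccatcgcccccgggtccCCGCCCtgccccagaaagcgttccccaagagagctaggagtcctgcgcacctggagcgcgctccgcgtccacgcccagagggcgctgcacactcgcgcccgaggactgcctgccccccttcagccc
SDC3: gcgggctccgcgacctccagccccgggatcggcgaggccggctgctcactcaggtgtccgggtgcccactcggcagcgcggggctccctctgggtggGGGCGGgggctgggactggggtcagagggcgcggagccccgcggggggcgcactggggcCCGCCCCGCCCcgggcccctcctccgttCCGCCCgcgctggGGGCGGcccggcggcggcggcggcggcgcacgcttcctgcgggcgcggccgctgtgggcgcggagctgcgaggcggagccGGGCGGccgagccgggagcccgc
HAS3: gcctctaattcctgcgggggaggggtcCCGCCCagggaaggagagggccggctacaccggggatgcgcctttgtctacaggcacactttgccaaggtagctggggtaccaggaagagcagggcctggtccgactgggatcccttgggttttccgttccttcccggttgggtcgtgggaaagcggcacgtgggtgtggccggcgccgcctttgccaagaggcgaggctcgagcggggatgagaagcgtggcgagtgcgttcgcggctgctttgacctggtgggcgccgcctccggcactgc

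The deposited counts summed to 36363358 and 14983135 in core replicates 1 and 2 and to 37591782 and 11789243 in invasion zone replicates 1 and 2, so both replicate 2 libraries were shallower. Levels are given as normalised CPM, the counts per library scaled to a common size over tested genes by TMM (factors 0.985 to 1.009), where 3 counts equal 0.0801 to 0.252 CPM. The melanoma genes SOX10 and TYR were at 0 counts in all 4 libraries and MITF lay at 1.71 to 3.37 CPM. VIM and AXL, which mark mesenchymal-like melanoma cells, were abundant, VIM at 1696 to 2439 CPM with overlapping zones. AXL was at 633 and 629 CPM in the core and 1224 and 1121 CPM in the invasion zone. With the replicate block, AXL passed the adjusted p under 2-fold (log2 difference 0.89, edgeR adjusted p = 0.000148). NGFR, of the same marker list, had 0 to 2 counts. Summed markers of other cell types were 1.66 to 1.84 CPM in the core and 0.505 to 0.560 CPM in the invasion zone for 5 immune genes (CD3E at 0), 7.63 to 18.4 and 0.926 to 5.77 CPM for 4 endothelial genes (PECAM1 in the main), and 145 to 173 and 126 to 144 CPM for 5 epithelial genes (KRT18 in the main). All 3 sums were lower in both invasion zone libraries than in both core libraries. By edgeR with the block, PECAM1 (log2 difference -2.005, adjusted p = 0.000552) and CD14 (-2.06, 0.00728, on 4 to 49 counts) were called lower. KRT8 passed the adjusted p under 2-fold (-0.74, 0.00977), and KRT18 did not pass (0.216). The part of these markers in the results was not tested. The paper made its spheroids from MV3 cells and describes no other cell type in them, so these sums do not count such cells. In bulk samples, fewer cells that express a gene and less of its RNA per cell cannot be told apart.

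The question was whether invading cells carried a different set of these transcripts from the cells that stayed in the core. With the zone as the only term, the quasi-likelihood test of edgeR with Benjamini-Hochberg adjustment called 0 of the 10 genes at an adjusted p under 0.05 and at least 2-fold, and 0 of all 15529 genes (0% in either direction, smallest adjusted p = 0.103). Keeping the 2-fold minimum but taking p under 0.05 before adjustment gave 495 genes higher and 995 lower, limma voom called 0 and 0, and DESeq2 called 354 and 548. Same-numbered libraries deviated together, and with the replicate number as a block edgeR called 588 genes higher (3.79%) and 1149 lower (7.40%). Of the 10 genes, HAS2 was then called higher and none lower. Without the fold minimum the block put 3107 genes (20.0%) higher and 3121 (20.1%) lower, among them SDC1, HAS2 and HAS3 as higher and SDC3 as lower. The invasion zone exceeded the core in every pairing of libraries for 4 of the 10 genes (28.1% of all genes tested) and was below it in every pairing for 1 (30.3%). The median log2 difference with the zone alone, invasion zone minus core, was 0.083 over the 10 and -0.008 over all genes tested.

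**Figure D1:**
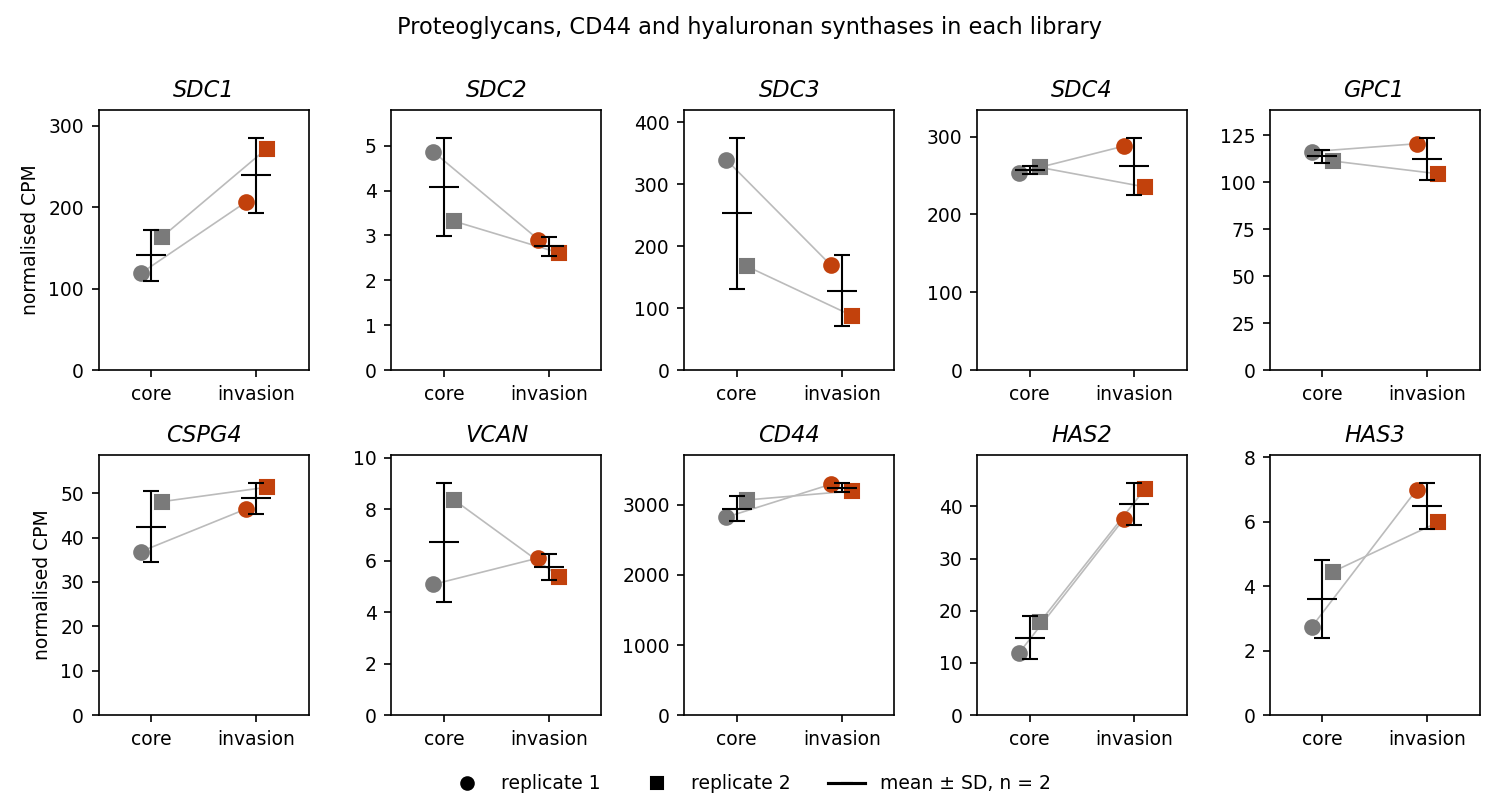
Normalised CPM (y axes, linear and starting at 0) of each gene in core and invasion zone libraries (x axes), with circles for replicate 1, squares for replicate 2, grey lines joining libraries of the same number and black bars for the mean ± SD (n = 2). HAS2 lay at 11.9 and 17.8 CPM in the core and at 37.6 and 43.3 CPM in the invasion zone, whereas SDC4 and GPC1 overlapped between zones.

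HAS2 showed the widest zone difference of the 10, with and without the block. This gene (HAS2, ENSG00000170961, GRCh38 chromosome 8, 121612116 to 121641440, minus strand), the synthase that makes long hyaluronan chains in most mesenchymal cells, was at 11.9 and 17.8 CPM in core replicates 1 and 2 and at 37.6 and 43.3 CPM in invasion zone replicates 1 and 2. Both invasion zone libraries were above both core libraries, and within replicates the zone ratio was 3.16 and 2.43. HAS2 rose 2.80-fold with the replicate block (log2 difference 1.49 ± 0.134 SE, 95% interval 1.18 to 1.79, adjusted p = 0.00018, edgeR). With the zone alone, DESeq2 gave HAS2 a log2 difference of 1.46 (adjusted p = 9.63e-05) and limma voom 1.52 (adjusted p = 0.1). In edgeR with the zone alone the difference was also of like size, 1.46 ± 0.244 SE (0.85 to 2.07), and the adjusted p was 0.112. This gene passed the zone-only test when core replicate 2 (adjusted p = 0.013), invasion zone replicate 1 (0.0059) or invasion zone replicate 2 (0.0436) was left out, and not without core replicate 1 (0.171). Its antisense partner HAS2-AS1, which shares 251 of the 4240 exon bases, had 43, 20, 40 and 15 counts in the same order of libraries, against 426, 269, 1410 and 515 counts of HAS2.

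HAS3 (ENSG00000103044, chromosome 16, 69105653 to 69118719, plus strand), a second synthase of the same family, was far less abundant. It lay at 2.74 and 4.44 CPM in the core and at 6.99 and 5.98 CPM in the invasion zone, again without overlap, on 67 to 262 counts. Within replicate 1 the ratio was 2.55 and within replicate 2 it was 1.35, so the libraries gave unequal sizes for the same direction. HAS3 rose with the block, by 1.99-fold (log2 difference 0.99 ± 0.267 SE, 95% interval 0.38 to 1.61, edgeR adjusted p = 0.0185), just under the 2-fold minimum. DESeq2 with the block gave it an adjusted p of 0.0913, and edgeR with the zone alone 0.167. The gene shares 365 of 5200 exon bases with CHTF8 and DERPC on the opposite strand, and CHTF8 was at 107 to 127 CPM. The library kit does not mark strand, so reads on the shared bases cannot be assigned to one of them. The last member of the family, HAS1, had 8, 0, 2 and 1 counts and was not tested. Per kilobase of exon, HAS2 made up 84.2% and 83.1% of the summed HAS2 and HAS3 level in the core and 86.8% and 89.9% in the invasion zone, and that sum was 3.33 and 5.06 in the core and 10.2 and 11.4 CPM per kilobase in the invasion zone. The added synthase transcripts were thus for the most part HAS2.

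CD44 (ENSG00000026508, chromosome 11, 35138882 to 35232402, plus strand), the main surface receptor for hyaluronan, was the most abundant of the 10 per length in every library. It reached 2825 and 3071 CPM in the core and 3296 and 3199 CPM in the invasion zone. Both invasion zone values were the higher, by a small margin: the log2 difference was 0.14 ± 0.2 SE (95% interval -0.36 to 0.64, edgeR adjusted p = 0.703), and with the block 0.14 ± 0.084 SE (-0.05 to 0.33, adjusted p = 0.220). A 2-fold difference of CD44 lay outside both intervals. These are gene counts, which do not separate the standard form of CD44 from its variant exons, and 154 of its 9992 exon bases are shared with opposite-strand genes.

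The 4 syndecans did not move together. SDC1 (ENSG00000115884, chromosome 2, 20200797 to 20225433, minus strand), which in normal tissue is the syndecan of epithelia and plasma cells, was at 119 and 163 CPM in the core and at 206 and 272 CPM in the invasion zone. Both invasion zone libraries were above both core libraries, with log2 ratios of 0.80 and 0.74 within replicates 1 and 2. SDC1 rose 1.70-fold with the block (log2 difference 0.77 ± 0.074 SE, 95% interval 0.60 to 0.94, edgeR adjusted p = 0.000225), under the 2-fold minimum, and its adjusted p was 0.136 with the zone alone. SDC3 (ENSG00000162512, chromosome 1, 30869466 to 30908758, minus strand), a syndecan first known from the nervous system, went the other way, with 340 and 167 CPM in the core and 169 and 87.7 CPM in the invasion zone. Its zones overlapped, since core replicate 2 lay just below invasion zone replicate 1, yet the log2 ratios within replicates were -1.01 and -0.93. SDC3 fell with the block, 1.96-fold (log2 difference -0.97 ± 0.075 SE, -1.15 to -0.80, edgeR adjusted p = 0.000126), also under the minimum. Corrected for GC content and length with the block, SDC3 was at -0.69 (edgeR adjusted p = 0.000196) and SDC1 at 0.95 (5.26e-05). The difference between replicates was as large for SDC3 as that between zones: replicate 2 was below replicate 1 by a log2 ratio of -1.02 in the core and -0.94 in the invasion zone. With the zone alone its log2 difference of -0.98 ± 0.434 SE had an adjusted p of 0.227, and it was -1.40 (0.0358) when core replicate 2 was left out, -1.53 (0.0152) when invasion zone replicate 1 was, -0.37 (0.708) when core replicate 1 was, and -0.59 (0.46) when invasion zone replicate 2 was.

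SDC4 (ENSG00000124145, chromosome 20, 45325288 to 45348424, minus strand), the syndecan found in focal adhesions, was at 254 and 260 CPM in the core and at 288 and 235 CPM in the invasion zone. The zones overlapped and the replicates went opposite ways, with log2 ratios of 0.18 and -0.15. The log2 difference of SDC4 was 0.03 ± 0.155 SE (95% interval -0.36 to 0.41, edgeR adjusted p = 0.937) and its sign changed with the scaling. SDC2 (ENSG00000169439, chromosome 8, 96493813 to 96611790, plus strand), a syndecan of mesenchymal cells, was scarce, at 4.86 and 3.32 CPM in the core and 2.91 and 2.61 CPM in the invasion zone. Both invasion zone values were the lower, but on 31 to 174 counts the log2 difference of -0.59 ± 0.327 SE had an interval from -1.40 to 0.23 (adjusted p = 0.319, and 0.0807 with the block). Corrected for GC content and length with the block, SDC2 was at -0.74 (edgeR adjusted p = 0.0424). Without that correction and with the zone alone, leaving out core replicate 1 gave -0.24.

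**Figure D2:**
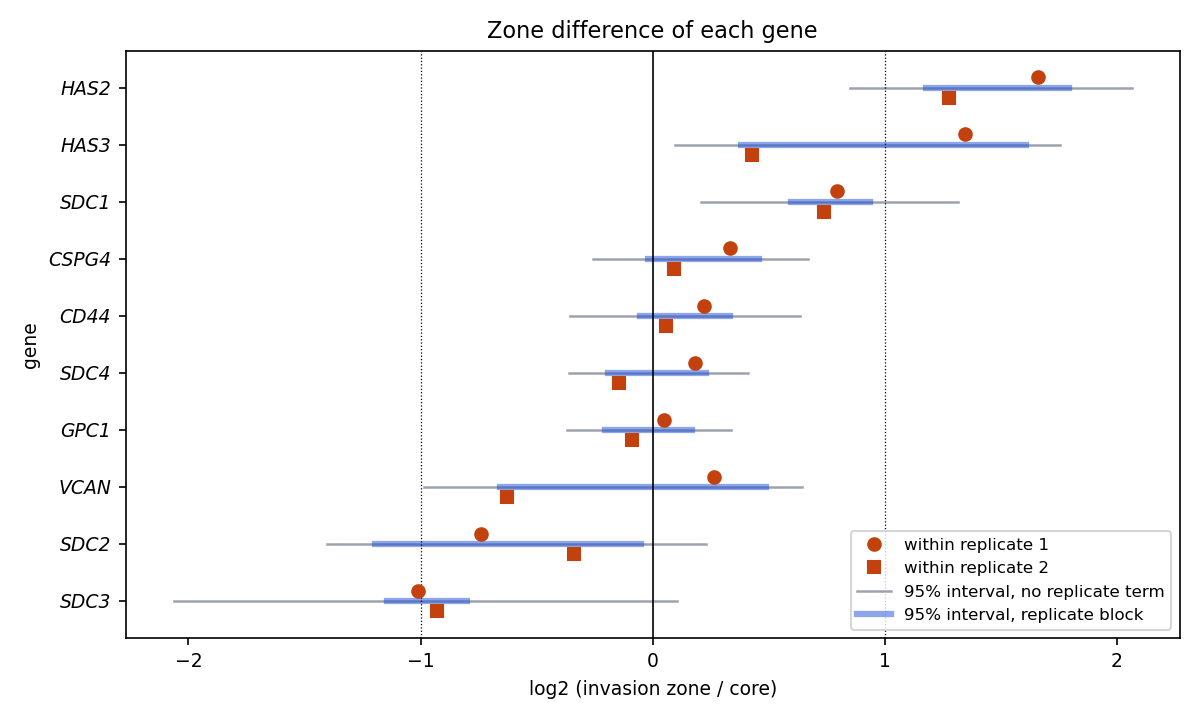
Log2 ratio of invasion zone to core (x axis) for each gene (y axis), within replicate 1 (circles) and replicate 2 (squares), with 95% intervals of the edgeR fit without a replicate term (thin grey) and with the replicate block (thick blue). Dotted lines mark a 2-fold difference, and the intervals with the block exclude 0 for HAS2, HAS3, SDC1, SDC3 and SDC2, the last with an adjusted p of 0.0807.

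Because the syndecans share chains and partners, their makeup was also read per length, as CPM per kilobase of exon. The summed syndecan level was 179 and 169 in the core and 192 and 178 in the invasion zone, so the sum overlapped between zones while its parts did not stay the same. SDC1 made up 18.3% and 26.7% of the sum in the core and 29.8% and 42.2% in the invasion zone. SDC3 made up 26.8% and 14% in the core and 12.5% and 6.96% in the invasion zone. For both genes the invasion zone share lay beyond the core share in the direction of its difference, although core replicate 2 came within a few points of invasion zone replicate 1. SDC4 held 50.5% to 58.9% in every library and SDC2 0.358% to 0.664%. An exact permutation test of 2 against 2 libraries cannot go below p = 0.33, so no test of these shares was made.

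**Figure D3:**
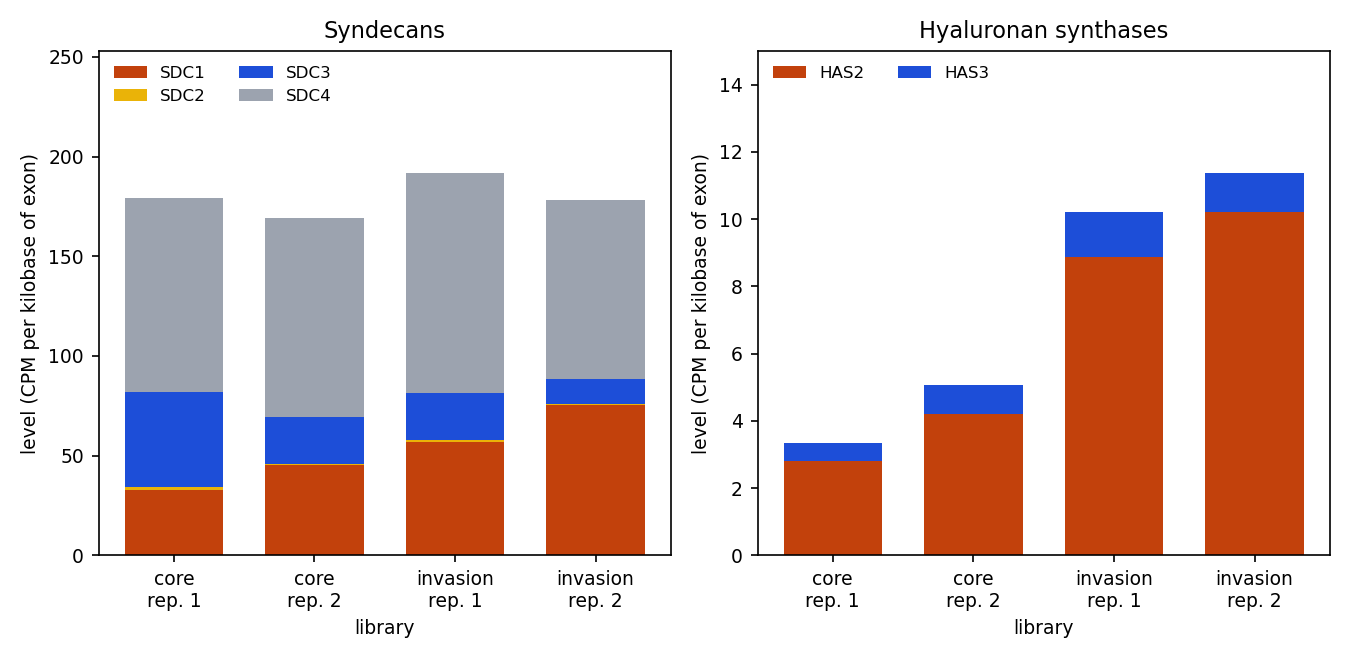
Level of each syndecan (left) and each hyaluronan synthase (right) in CPM per kilobase of exon (y axes, starting at 0), stacked for each library (x axes). The syndecan sum stays between 169 and 192 while the SDC1 part goes from 32.9 in the core to 57.0 in the invasion zone in replicate 1 and from 45.1 to 75.3 in replicate 2, the SDC3 part goes from 48.1 to 23.9 and from 23.7 to 12.4, and the synthase sum runs from 3.33 to 11.4.

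The remaining proteoglycans did not pass the test as fitted on the counts, with or without the block, but GPC1 and CSPG4 depended on a correction for GC content and length. GPC1 (ENSG00000063660, chromosome 2, 240435663 to 240468076, plus strand), a glypican expressed in many tumours, was at 116 and 111 CPM in the core and 120 and 104 CPM in the invasion zone. The zones overlapped, the log2 difference of GPC1 was -0.02 ± 0.142 SE (95% interval -0.37 to 0.34, edgeR adjusted p = 0.960), and with that correction it was 0.33 (adjusted p = 0.208, and 0.00923 with the correction and the block). CSPG4 (ENSG00000173546, chromosome 15, 75674322 to 75712848, minus strand) was at 36.8 and 48.1 CPM in the core and 46.4 and 51.3 CPM in the invasion zone. Its values overlapped too, with a log2 difference of 0.21 ± 0.185 SE (-0.26 to 0.67, adjusted p = 0.527) and 0.22 ± 0.104 SE with the block (0.129). Corrected for GC content and length, the difference of CSPG4 was 0.58 (edgeR adjusted p = 0.160) and with the block 0.59 (0.00159), still under 2-fold. Without that correction and with the zone alone, it was 0.03 when core replicate 1 was left out and 0.42 when core replicate 2 was. Pseudogenes named after CSPG4 had at most 9 counts in a library, and 563 of its 8290 exon bases are shared with a gene on the opposite strand. VCAN (ENSG00000038427, chromosome 5, 83471618 to 83582303, plus strand) was scarce, at 5.09 and 8.36 CPM in the core and 6.11 and 5.39 CPM in the invasion zone. The highest and the lowest value of VCAN were both in the core, and its log2 difference of -0.17 ± 0.326 SE had an interval from -0.99 to 0.64 (adjusted p = 0.782).

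Per kilobase of exon the genes kept much of their order across libraries. CD44 came first (283 and 307 in the core, 330 and 320 CPM per kilobase in the invasion zone), SDC4 second (90.1 to 110) and VCAN last (0.347 to 0.569) in all 4 libraries. HAS2 was below CSPG4 in both core libraries, at 2.81 and 4.21 against 4.44 and 5.80, and above it in both invasion zone libraries, at 8.87 and 10.2 against 5.60 and 6.19. SDC1 was below SDC3 in core replicate 1 alone and above it in the other 3 libraries. SDC2, HAS3 and VCAN, all within 0.347 to 1.34 CPM per kilobase, shared the lowest ranks. The neighbours SDC3 and GPC1, at 12.4 to 48.1 and 16.0 to 18.5, overlapped over the 4 libraries, as did SDC2 and HAS3.

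Around the synthases and CD44, 23 further genes of hyaluronan turnover (precursor enzymes, hyaluronidases, binding proteins and other receptors) were listed, and 12 were tested. With the block, 1 of the 12 was called higher (3.79% of all genes) and 2 lower (7.40%), and without the fold minimum 3 (20.0%) and 5 (20.1%) passed. Their median log2 difference was -0.17 with the zone alone, beside -0.008 over all genes tested. UAP1, which makes the UDP-N-acetylglucosamine that the synthases use, was at 131 and 183 CPM in the core and 259 and 354 CPM in the invasion zone and rose with the block, 1.96-fold (log2 difference 0.97 ± 0.073 SE, edgeR adjusted p = 0.000114). GFPT1, the first enzyme of that route, fell by 0.24 on the log2 scale with the block (adjusted p = 0.0352), and UGP2, which makes UDP-glucose, was at 92.5 to 115 CPM with an adjusted p of 0.36. HMMR, an intracellular and mitotic hyaluronan-binding protein also known as RHAMM, was at 17.8 and 38.3 CPM in the core and 67.9 and 73.0 CPM in the invasion zone and rose 2.73-fold (0.000953). TNFAIP6, a secreted hyaluronan-binding protein that links chains at sites of inflammation, had 295 and 43 counts in the core and 8 and 0 in the invasion zone. Over the zones that is a core to invasion ratio of 41.0 (95% interval 20.6 to 95.7, counting error only), and TNFAIP6 fell with the block (edgeR adjusted p = 9.4e-05). HAPLN3, a link protein, fell on 22, 9, 9 and 1 counts (0.0495), a call not made with DESeq2 and the block, the older form of edgeR and the block, or GC and length correction and the block.

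The list of 31 other proteoglycans, of which 17 were tested, had a median log2 difference of -0.45 with the zone alone, beside -0.008 over all genes tested. The block called 2 of the 17 higher (3.79% of all genes) and 4 lower (7.40%), and without the fold minimum 3 (20.0%) and 7 (20.1%) passed. NRP1, a co-receptor that can carry a chain, was at 955 to 1221 CPM with no zone difference past the test (edgeR adjusted p = 0.925 with the block). SRGN, the serglycin of secretory granules, was at 162 and 119 CPM in the core and 241 and 207 CPM in the invasion zone and rose 1.60-fold (0.000538), while AGRN, the basement membrane proteoglycan agrin, was at 195 and 142 against 136 and 73.5 CPM and fell 1.66-fold (0.00122). ESM1, the secreted proteoglycan endocan, was at 19.2 and 51.6 CPM in the core and 79.4 and 164 CPM in the invasion zone and rose 3.62-fold (7.9e-05), and OGN, the small leucine-rich proteoglycan osteoglycin, rose on 9 and 6 against 30 and 12 counts (0.0384), which DESeq2, the older edgeR form and the GC and length correction, each with the block, did not call. TGFBR3, the co-receptor betaglycan, was at 192 and 107 CPM in the core and 107 and 32.6 CPM in the invasion zone and fell 2.36-fold with the block (0.000951). BGN, the matrix proteoglycan biglycan, had 25 counts over the core and 1 over the invasion zone, a ratio of 24.3 with a 95% counting interval of 3.97 to 996, and its adjusted p was 0.00474. The other two called lower, SMOC1 (log2 difference -1.20, adjusted p = 0.0118) and SPOCK2 (-1.36, 0.0233), are named here after their values were seen. DESeq2 with the block called neither of them, nor BGN.

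**Figure D4:**
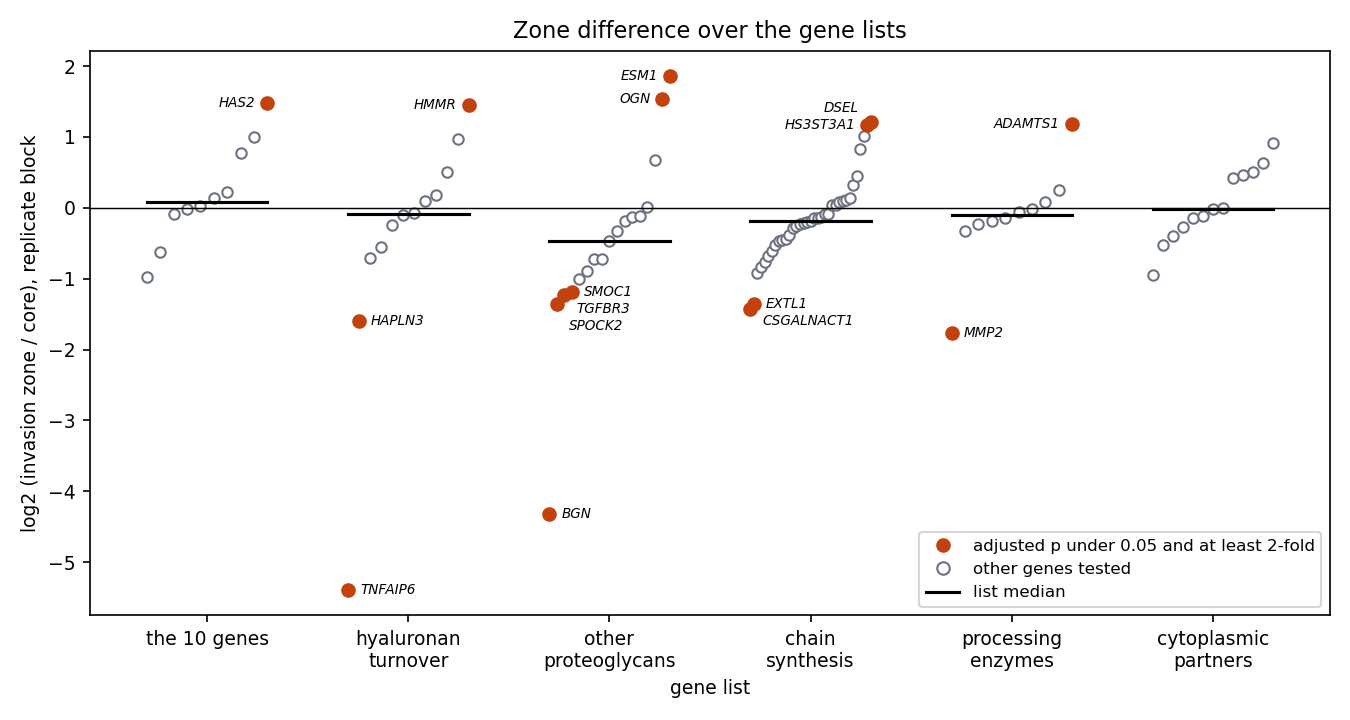
Log2 difference between invasion zone and core with the replicate block (y axis) for the tested genes of each list (x axis), filled where the adjusted p was under 0.05 and the difference at least 2-fold, with a black line at the list median. HAS2 is the only filled point among the 10 genes, and the medians run from -0.475 (other proteoglycans) to 0.08 (the 10 genes).

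Among 42 genes that build and sulphate the chains, 35 were tested, with a median log2 difference of -0.19 with the zone alone. The block called 2 of the 35 higher (3.79% of all genes) and 2 lower (7.40%), and 5 (20.0%) and 12 (20.1%) passed without the fold minimum. CHPF and CHPF2, which work in the polymerisation of chondroitin chains, were at 530 and 432 against 328 and 217 CPM and at 274 and 192 against 193 and 142 CPM, and fell 1.79-fold (edgeR with the block, adjusted p = 0.000301) and 1.39-fold (0.00157). CHPF2 shares 1321 of its 6498 exon bases with SMARCD3 on the opposite strand. CSGALNACT1, which starts those chains, fell 2.70-fold, from 3.86 and 4.11 CPM to 1.57 and 1.18 CPM (0.00483). EXT2, of the heparan sulphate polymerase, was at 262 to 327 CPM and missed the threshold (0.0523), whereas its relative EXTL1 fell on 109, 34, 55 and 3 counts (0.0225), a call not made by DESeq2 with the block or after GC and length correction with the block. HS3ST3A1, a heparan sulphate 3-O-sulphotransferase, was at 14.6 and 35.0 CPM in the core and 35.6 and 72.4 CPM in the invasion zone and rose 2.25-fold (0.000207). DSEL, a dermatan sulphate epimerase, was at 18.8 and 34.4 against 46.9 and 73.0 CPM and rose 2.31-fold (0.00017), although 3480 of its 9266 exon bases are shared with genes on the opposite strand.

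Of 18 enzymes that clip or trim proteoglycans, 10 were tested, with 1 called higher (3.79% of all genes) and 1 lower (7.40%) with the block. Without the fold minimum the block put 2 (20.0%) higher and 3 (20.1%) lower. The median log2 difference of the tested enzymes was -0.12 with the zone alone. MMP2, a gelatinase, was at 1260 and 750 CPM in the core and 441 and 185 CPM in the invasion zone and fell 3.40-fold (edgeR with the block, adjusted p = 9e-05). ADAMTS1, a protease that cuts versican, was at 91.4 and 146 CPM in the core and 232 and 298 CPM in the invasion zone and rose 2.28-fold (0.00013). ADAM15 rose 1.19-fold (0.033). Of 15 cytoplasmic partners of CD44 and the syndecans, 13 were tested, with none called at 2-fold. Without the fold minimum the block put 5 higher (20.0% of all genes) and 2 lower (20.1%). The median of the tested partners was -0.02 with the zone alone. MSN (moesin), which ties CD44 to actin, was at 773 and 915 CPM in the core and 1077 and 1243 CPM in the invasion zone and rose 1.38-fold (edgeR with the block, adjusted p = 0.00158). SDCBP (syntenin), which binds the tails of syndecans, was at 503 and 454 against 370 and 301 CPM and fell 1.43-fold (0.00113), and IQGAP1 was at 433 to 504 CPM with an adjusted p of 0.922. With the zone alone, none of the 87 tested genes of these 5 lists was called.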

How the data were processed

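Bulk RNA of 2 core and 2 invasion zone samples was sequenced after low-input cDNA synthesis (SMARTer kit). The authors filtered out ribosomal RNA reads (Bowtie), applied a read quality filter, aligned to hg38 with STAR and deposited HTSeq raw counts of uniquely mapped reads for each gene. For tool versions, annotation and strand setting, nothing is given in the sources used here. The table had 56306 gene rows, of which 56303 were used after rows with a repeated identifier and no counts were dropped. The 10 genes and the lists around them were chosen with earlier results of these data known.

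The filter of edgeR by zone (10 counts at median depth in 2 libraries, 15 in total) left 15529 genes, which were fitted with edgeR 4.0.16 (R 4.3.3, TMM, quasi-likelihood test in its newer form, zone as the only term) and adjusted by Benjamini-Hochberg. Calls needed an adjusted p under 0.05 and at least 2-fold. Core and corresponding invasion zone were dissected from the same spheroids, so the replicate number was read as a pairing, although the sources do not state that it marks a shared spheroid or day. Deviations of same-numbered libraries from their zone means correlated at 0.564 over genes. With 2 pairs this is a hint only, and the fit with the replicate block is given beside the other. Libraries of a zone were not duplicates (chi-square per degree of freedom 37.9 and 35.2). Alternatives used DESeq2 1.42.0 and limma 3.58.1. The procedure was tested on simulated data. Ratios within replicates added 0.5 counts. Lengths, positions and shared exons came from GENCODE 44 on GRCh38, which held 98.1% of the identifiers. Figures were drawn with matplotlib 3.10.9.

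Named genes were the 10, the 3 genes of highest mean CPM in each of 5 lists, and up to 2 genes in each direction called with or without the block, by smallest adjusted p. Depth ran from 11789243 to 37591782 counts, and intervals on counts hold counting error alone.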

Additional observations from a re-analysis of the deposited data

How the results depend on the processing

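Over 21 settings, 210 log2 differences of the 10 genes were compared with the main fit: 174 kept direction and call, 25 passed the threshold in addition and 11 changed sign. Settings that changed only the fold minimum or the p-value threshold reused the log2 differences of another fit. Their signs therefore repeat those of that fit and are no further check of direction. HAS2, SDC1 and HAS3 stayed higher and SDC3 and SDC2 lower in the invasion zone throughout. The sign changed for SDC4 (-0.006 with upper-quartile scaling, -0.011 after correcting for GC content and length, -0.022 with that and the replicate block, with or without the fold minimum, -0.128 to 0.163 on leaving out 1 library), GPC1 (0.334 and 0.332 with the same corrections, -0.123 to 0.082 on leaving out 1 library, with 0.026 for core replicate 1) and VCAN (-0.519 to 0.196, the last for core replicate 2). The cause was not tested. With the GC and length correction and the block, GPC1, CSPG4 and SDC2 passed an adjusted p of 0.05 (0.00923, 0.00159 and 0.0424) under 2-fold. The correction alone moved CSPG4 from 0.205 to 0.579, SDC3 from -0.98 to -0.703 and SDC1 from 0.763 to 0.944.

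Of the 10 genes, 1 was called higher (HAS2) without the low-count filter, with the replicate block, with DESeq2, with DESeq2 and the block, with the older form of the edgeR test and the block, and at unadjusted p. HAS2 and HAS3, 2 genes, were called with limma voom and the block and with GC and length correction and the block. Without the fold minimum the block gave 3 higher and 1 lower, and with GC and length correction 5 and 2. Leaving out 1 library gave 0 to 1 higher and 0 to 1 lower. Of the 87 pathway genes, the calls were 0 higher and 1 lower without the filter, 6 and 9 with the block, 4 and 3 with DESeq2, 5 and 4 with DESeq2 and the block, 6 and 9 with limma voom and the block, 5 and 8 with the older edgeR form and the block, 18 and 29 with the block and no fold minimum, 5 and 5 at unadjusted p, 6 and 7 with GC and length correction and the block, and 21 and 27 with that and no fold minimum. Without 1 library they were 0 to 7 higher and 0 to 7 lower: 0 and 0 for core replicate 1, 7 and 2 for core replicate 2, 7 and 7 for invasion zone replicate 1, and 0 and 1 for invasion zone replicate 2. These fits take the lone library to vary as the other zone did. Over all genes tested, 81 were called higher and 191 lower of 32869 without the filter, and 354 and 548 of 15529 with DESeq2. With the block it was 588 and 1149 (edgeR), 427 and 731 (DESeq2), 575 and 1088 (limma voom) and 530 and 1097 (older edgeR form). GC and length correction with the block gave 584 and 1111 of 15395. Without the fold minimum the block gave 3107 and 3121, and 3170 and 3150 with that correction. Unadjusted p gave 495 and 995. The older edgeR form with the block, and the GC and length correction with the block and no fold minimum, were added after seeing the data. On the length of the canonical transcript the mean SDC4 share of the syndecan sum in the core was 51.2% instead of 56.6%. The mean SDC2 share in the invasion zone was 0.415% instead of 0.364%. For HAS2, the mean share of the summed HAS2 and HAS3 level was 80.5% instead of 83.6% in the core. In the invasion zone it was 86% instead of 88.4%. Depth limits HAS3, VCAN and SDC2 most, at 31 to 262 counts a library.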
